A study of Rattus norvegicus with 4 samples.

Results

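The 2-oxoacid dehydrogenase complexes of liver mitochondria were followed here through the genes of their subunits, on 1-colour CodeLink arrays of the livers of 4 male OLETF rats (Otsuka Long-Evans Tokushima Fatty). The members are the 10 subunit genes Pdha1, Pdhb, Dlat, Dld, Pdhx, Ogdh, Dlst, Bckdha, Bckdhb and Dbt, taken by symbol from the annotation of the array's probes. Of these, 7 genes had a named probe, 8 probes in all out of 33849 gene probes, and all 8 were kept among the 18664 probes above background in at least 1 group. No probe carried the name of Pdhb, Pdhx or Dbt, which were not analysed here. The names of 5 of the 8 probes were also given by a RefSeq accession in the scanner reports, while those of Dlat, Bckdha and Bckdhb rest on the platform annotation alone. For Dlat and Bckdhb the reports and the platform annotation held the same accession, while for Bckdha they held different ones, so its name is less certain.

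OLETF rats become obese and diabetic on ordinary chow. The thiamine group (2 arrays) had 0.2% thiamine (2 g per L) in its drinking water over 51 weeks, starting at an age of 4 weeks, and the untreated group (2 arrays) had none added. At the age of 55 weeks the rats were fasted for 16 h and anaesthetized with pentobarbital before the liver was removed. The study held 8 rats in each group with 2 in a cage, each array shows 1 rat and no RNA was pooled (the labels do not tie the rats to cages). No lean strain is among these samples, so both groups share the OLETF background. The comparison asks how long intake of the vitamin relates to the expression of the enzymes that use it.

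Each complex joins 3 catalytic parts. The first, E1, holds thiamine diphosphate, the active form of vitamin B1, and removes carbon dioxide from a 2-oxoacid. The second, E2, carries the remaining acyl group on lipoic acid and passes it to coenzyme A, and the third, E3, is a flavoprotein that reoxidizes the lipoic acid and hands the electrons to NAD. The pyruvate dehydrogenase complex links glycolysis to the citric acid cycle, the oxoglutarate dehydrogenase complex is a step of that cycle, and the branched-chain complex commits valine, leucine and isoleucine to breakdown. The E3 subunit, Dld, is common to all of them. In the fasted liver pyruvate dehydrogenase is held back by phosphorylation of its E1 component, which spares pyruvate for glucose synthesis.

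The values of the E2 genes Dlat and Dlst were lower in both thiamine livers than in both untreated livers, and the E2 gene Dbt had no named probe. Of the E1 genes, Pdha1 was higher in both thiamine livers on its brighter probe. The other measured E1 genes overlapped between the groups, with log2 differences of 0.028 for Ogdh, 0.091 for Bckdha and -0.25 for Bckdhb. The E3 gene Dld was nearly level. None of these differences passed the test: limma with Benjamini-Hochberg adjustment called 0 of 18664 kept probes (0%) at an adjusted p under 0.05. An unadjusted p under 0.05 (limma) was reached by 1 of the 8 subunit probes, that of Dlat, and by 6.75% of all kept probes. These were 2.94% with lower and 3.81% with higher values in the thiamine livers, a split that hung on the filter and the scaling. With only probes above background on all arrays, 500 were higher and 503 lower, and with no filter 828 and 931. Under 75th percentile scaling 567 were higher and 628 lower. The groups did not overlap for Dlat, Dlst and Pdha1, 3 of the 7 genes and 3 of the 8 probes. Of the 8977 named genes with values on all arrays 37.5% were without overlap (19% lower and 18.5% higher), as were 36.2% of kept probes, so that the count of subunits is close to the background. With 1 array left out limma called 2 or 89 probes (thiamine rat 1 or 2 left out) and 87 or 79 probes (untreated rat 1 or 2 left out), among them 0 subunit probes in each of these fits.

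As background to the 3 genes whose groups did not overlap, the 200 bases before their start sites are shown, from the RefSeq sequences of the rat build GRCr8. They lie at chr8:59900819-59901018 on the minus strand for Dlat, chr6:110489506-110489705 on the plus strand for Dlst and chrX:38508958-38509157 on the plus strand for Pdha1, each printed 5′ to 3′ with matches to the motifs below in capitals.
Dlat: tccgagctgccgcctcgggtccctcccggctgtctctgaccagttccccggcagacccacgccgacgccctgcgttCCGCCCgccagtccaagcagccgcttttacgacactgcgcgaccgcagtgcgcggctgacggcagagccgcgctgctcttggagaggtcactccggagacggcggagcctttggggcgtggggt
Dlst: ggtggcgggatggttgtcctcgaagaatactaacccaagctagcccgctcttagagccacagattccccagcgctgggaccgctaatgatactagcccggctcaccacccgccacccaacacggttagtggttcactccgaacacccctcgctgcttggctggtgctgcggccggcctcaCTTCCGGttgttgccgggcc
Pdha1: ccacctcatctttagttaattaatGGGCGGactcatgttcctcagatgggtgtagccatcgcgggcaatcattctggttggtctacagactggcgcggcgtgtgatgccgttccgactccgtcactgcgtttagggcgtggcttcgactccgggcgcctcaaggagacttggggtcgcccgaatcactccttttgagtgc

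Promoter sequences were at hand for 9 of the 10 subunit genes, including the 3 genes without a probe; Bckdha had none. The 250 bases before the start site were searched on both strands for motifs of factors known to act on many genes of mitochondrial metabolism, and no matches overlapped each other. The ETS core CCGGAAG was in the Dlst promoter, as CTTCCGG from base 20 to base 14 before the start, and in 7.27% of all 33469 promoters. The Sp1 box GGGCGG was in 6 of the 9 subunit promoters, those of Dlat, Pdha1, Ogdh, Bckdhb, Dbt and Pdhx, and in 30.47% of all promoters. The cyclic AMP response element TGACGTCA was in that of Ogdh, from base 99 to base 92 before the start, and in 1.59% of all. Neither the NRF1 motif, GCGCA and GCGC with any 1 base between them (3.75% of all promoters), nor the ERR motif TCAAGGTCA (0.39%) was in any of the 9. Dlat and Dlst, the pair with lower values in the thiamine livers, had no motif of these in common. The GC content of the 200 bases was 71.0% for Dlat, 62.5% for Dlst and 57.0% for Pdha1, with a median of 62.5% over the 9 subunit genes and 52.0% over all promoters. A match is a description of letters and shows no binding.

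**Figure D1:**
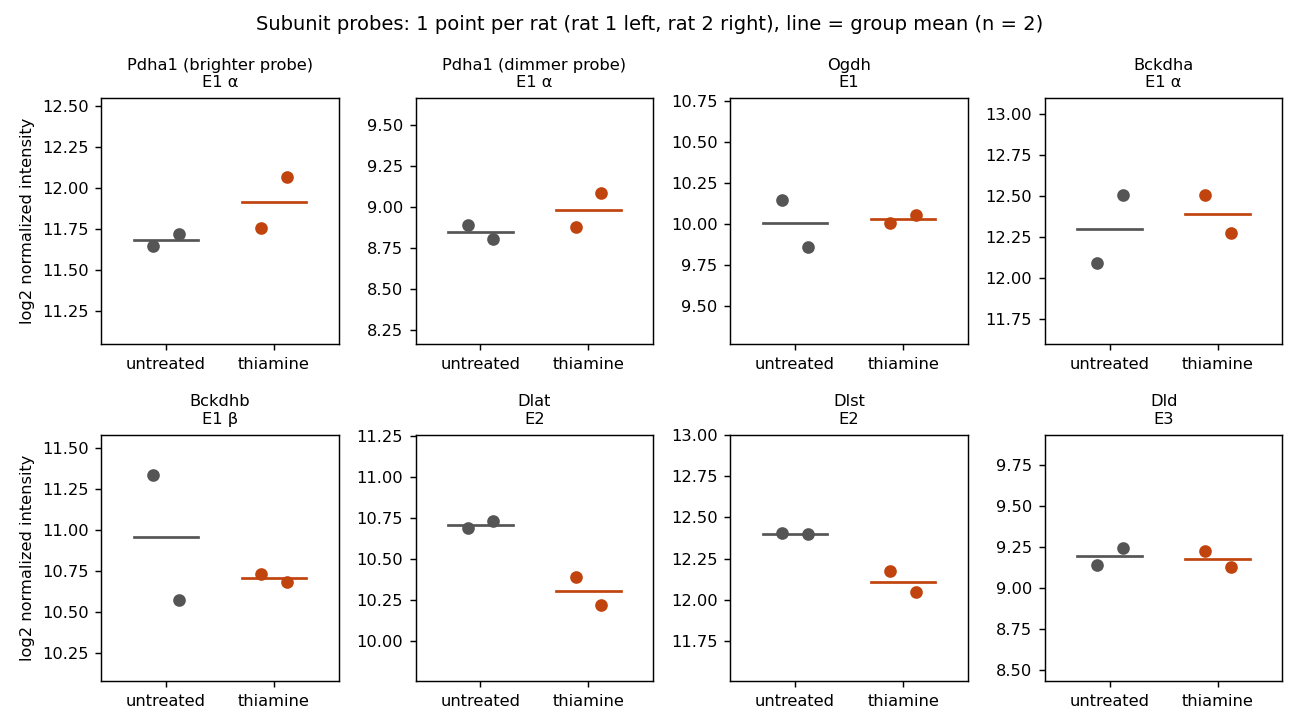
Log2 normalized intensity of each subunit probe in the 4 livers, 1 point per rat and a line at the group mean (n = 2 per group); every vertical axis spans the same log2 range around its own mean. Both thiamine livers lie below both untreated livers for Dlat and Dlst and above them for the brighter Pdha1 probe, while the untreated rats themselves are far apart for Bckdhb (11.34 and 10.57).

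The E1 component of pyruvate dehydrogenase was represented by Pdha1, the alpha subunit that is phosphorylated by the dehydrogenase kinases, with 2 probes. The brighter probe was at 11.76 and 12.07 (log2 normalized intensity) in thiamine rats 1 and 2 and at 11.65 and 11.72 in untreated rats 1 and 2. Both thiamine values were above both untreated ones, but thiamine rat 1 lay within 0.11 of the other group while the 2 thiamine rats were 0.31 apart from each other. The log2 difference, thiamine less untreated, was 0.23 ± 0.19 (moderated SE of limma, n = 2 per group), with a 95% interval from -0.19 to 0.64 and an adjusted p of 0.88. The dimmer probe was at 8.88 and 9.08 in the thiamine rats and at 8.89 and 8.80 in the untreated rats, which overlapped, with a difference of 0.14 ± 0.18. The 2 probes thus had the same sign, and thiamine rat 2 was the highest of the 4 rats on both. The difference of the brighter probe dropped to 0.072 when thiamine rat 2 was left out and stood at 0.38 when thiamine rat 1 was left out.

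Dlat is the E2 of pyruvate dehydrogenase, the acetyltransferase that forms the core of the complex. It was at 10.39 and 10.22 in thiamine rats 1 and 2 and at 10.69 and 10.74 in untreated rats 1 and 2. The lowest untreated value was above the highest thiamine value, and each group was tight, with gaps of 0.17 and 0.046 between its rats. The difference was -0.41 ± 0.18 with a 95% interval from -0.80 to -0.0077, or 0.755 times the untreated level (0.573 to 0.995 times). Its adjusted p was 0.72 (limma), and 3.88% of the 8985 named genes had a lower difference. Leaving out 1 array at a time gave -0.49 to -0.32. The unadjusted p of 0.046 (limma) stood under 0.05 in 5 of 11 alternatives that used all arrays, over which it ran from 0.034 to 0.083. Of these 5, 1 changed only the probe of Pdha1 and so repeated the main fit for Dlat. On the scanner's scale, before any scaling between arrays, the background-subtracted intensity was 1382 and 1219 in the thiamine rats and 1463 and 1560 in the untreated rats, so that the groups were apart there too.

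Dlst is the E2 of the oxoglutarate dehydrogenase complex, a succinyltransferase. It was at 12.17 and 12.04 in thiamine rats 1 and 2 and at 12.40 in both untreated rats, which were 0.0052 apart. Both thiamine values were below both untreated values. The difference was -0.29 ± 0.18 with a 95% interval from -0.69 to 0.10 and an adjusted p of 0.84 (limma), and 8.50% of named genes had a lower difference. It stayed between -0.36 and -0.23 with 1 array left out. Before scaling, the background-subtracted intensity was 4974 and 4324 in the thiamine rats and 4968 and 5141 in the untreated rats, so that thiamine rat 1 and untreated rat 1 were level on the scanner's scale and the groups overlapped. The arrays of the thiamine group were brighter, with a median background-subtracted intensity of 150.22 and 158.51 over gene probes against 131.23 and 129.88, and the scaling between arrays removes that.

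Ogdh, the E1 of the same complex and the part that binds oxoglutarate, was at 10.01 and 10.06 in thiamine rats 1 and 2 and at 10.15 and 9.86 in untreated rats 1 and 2. The thiamine rats lay between the 2 untreated rats. Its difference was 0.028 ± 0.19 with a 95% interval from -0.38 to 0.44, with -0.11 when untreated rat 2 was left out and 0.17 when untreated rat 1 was. The mean of Ogdh was thus level within an interval that still holds changes of 0.767 to 1.36 times.

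Dld, the dihydrolipoamide dehydrogenase shared by the complexes, was at 9.22 and 9.13 in thiamine rats 1 and 2 and at 9.14 and 9.24 in untreated rats 1 and 2. The 4 rats lay within a narrow band and the groups overlapped. The difference was -0.018 ± 0.18 with a 95% interval from -0.41 to 0.38. Its sign was not settled: it was 0.020 with median scaling, 0.030 without thiamine rat 2 and 0.032 without untreated rat 2.

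The E1 of the branched-chain complex is a pair of alpha and beta chains, coded by Bckdha and Bckdhb. Bckdha was at 12.51 and 12.28 in thiamine rats 1 and 2 and at 12.09 and 12.51 in untreated rats 1 and 2, with a difference of 0.091 ± 0.20. Bckdhb was at 10.73 and 10.68 in the thiamine rats and at 11.34 and 10.57 in the untreated rats, with a difference of -0.25 ± 0.24. The groups overlapped for both chains. Untreated rat 1 was the lowest of the 4 rats for Bckdha and the highest for Bckdhb, and untreated rat 2 was at the other end for Bckdhb, so the gap of 0.76 between the 2 untreated rats exceeded the difference between groups of any subunit. Without untreated rat 1 the signs turned, to -0.12 for Bckdha and 0.13 for Bckdhb, and Bckdha was also at -0.025 without thiamine rat 1. The adjusted p of limma was 0.97 for Bckdha and 0.90 for Bckdhb.

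**Figure D2:**
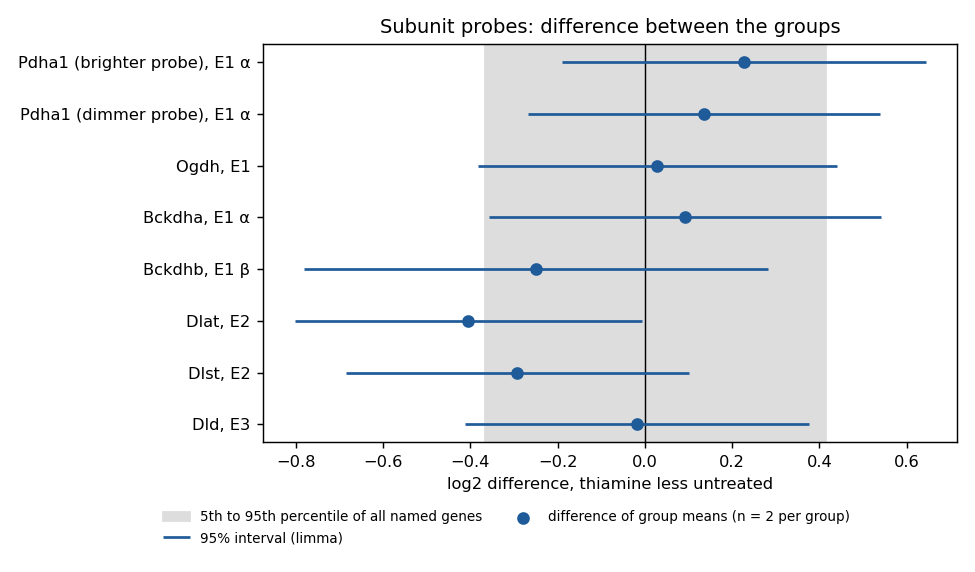
Log2 difference of each subunit probe, thiamine less untreated, as a point with its 95% interval from limma (n = 2 per group), over the grey band that holds the 5th to 95th percentile of the differences of all named genes (-0.37 to 0.42). The interval of Dlat ends just below 0 and that of every other probe crosses 0.

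As a list the 7 measured genes had 3 higher and 4 lower values, with a median difference of -0.018 (0.020 with median scaling), against 4547 higher and 4438 lower and a median of 0.0035 over all 8985 named genes. The median of each complex was that of Dld, -0.018, since 3 genes of each were measured and Dld lay in the middle of each. The members spread more widely than these medians show. In pyruvate dehydrogenase the differences ran from -0.41 for Dlat to 0.23 for Pdha1, a range of 0.63. In oxoglutarate dehydrogenase they ran from -0.29 for Dlst to 0.028 for Ogdh, a range of 0.32, and in the branched-chain complex from -0.25 for Bckdhb to 0.091 for Bckdha, a range of 0.34. Grouped by role, the 4 measured E1 genes had a median of 0.060, with 3 higher and 1 lower, and the 2 measured E2 genes had one of -0.35, with 2 lower.

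Subunits of 1 complex were then set against each other by the log2 ratio of their probes on each array, a quantity from which a constant scaling factor of the array drops out. Only the change of a ratio between groups is used, since the levels of different probes cannot be compared, and each ratio is given relative to its mean over the 4 arrays with the gene of the higher difference on top, which fixes the sign of its change. Of 9 pairs, 5 had ratios that did not overlap between the groups, where 37.9% of all pairs of named genes did not; the 5 pairs share Dlat, Dlst, Pdha1 and Dld and are not independent. An exact permutation test of 2 rats against 2 cannot go below p = 0.333, so no pair could pass, and over the 9 pairs the adjusted p was 0.60 for each of these 5 (exact permutation, two-sided). A change in a ratio shows that the members differed unequally and does not show that either was constant.

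In pyruvate dehydrogenase the ratio of Pdha1 to Dlat was at 0.077 and 0.55 in thiamine rats 1 and 2 and at -0.33 and -0.30 in untreated rats 1 and 2. The ratio was higher in both thiamine livers by a mean of 0.63 on the log2 scale, or 1.55-fold, with an SD of 0.34 in the thiamine group and 0.018 in the untreated group (n = 2 each). It came to 0.39 when thiamine rat 2 was left out, to 0.87 when thiamine rat 1 was, and to 0.54 with the dimmer Pdha1 probe. The ratio of Dld to Dlat was more even: it was at 0.16 and 0.23 in the thiamine rats and at -0.22 and -0.17 in the untreated rats. Its change of 0.39 lay between 0.35 and 0.42 with any 1 array left out, and the groups were 0.33 apart at their nearest. The ratio of Pdha1 to Dld changed by 0.24, with the nearest rats of the groups only 0.027 apart. That change came to 0.041 when thiamine rat 2 was left out, stood at 0.45 when thiamine rat 1 was, and was 0.15 with the dimmer Pdha1 probe.

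In oxoglutarate dehydrogenase the ratio of Dld to Dlst was at 0.12 and 0.15 in thiamine rats 1 and 2 and at -0.19 and -0.085 in untreated rats 1 and 2, a change of 0.27 that lay between 0.22 and 0.33 with 1 array left out. That of Ogdh to Dlst was at 0.073 and 0.25 in the thiamine rats and at -0.022 and -0.30 in the untreated rats, a change of 0.32, and between 0.18 and 0.46 with 1 array left out. In both ratios the thiamine livers lay above the untreated livers. The ratio of Ogdh to Dld overlapped between the groups, with a change of 0.046 that turned to -0.15 when untreated rat 2 was left out and to -0.025 when thiamine rat 2 was.

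In the branched-chain complex no ratio was free of overlap. That of the alpha to the beta chain, Bckdha to Bckdhb, was at 0.26 and 0.080 in thiamine rats 1 and 2 and at -0.76 and 0.42 in untreated rats 1 and 2. The untreated rats stood at both ends, with an SD of 0.83 against 0.13 in the thiamine group. The change of 0.34 turned to -0.25 when untreated rat 1 was left out and grew to 0.93 when untreated rat 2 was. Against Dld, Bckdha changed by 0.11, and by -0.049 without untreated rat 1, and the change of Dld over Bckdhb was 0.23, or -0.20 without untreated rat 1.

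**Figure D3:**
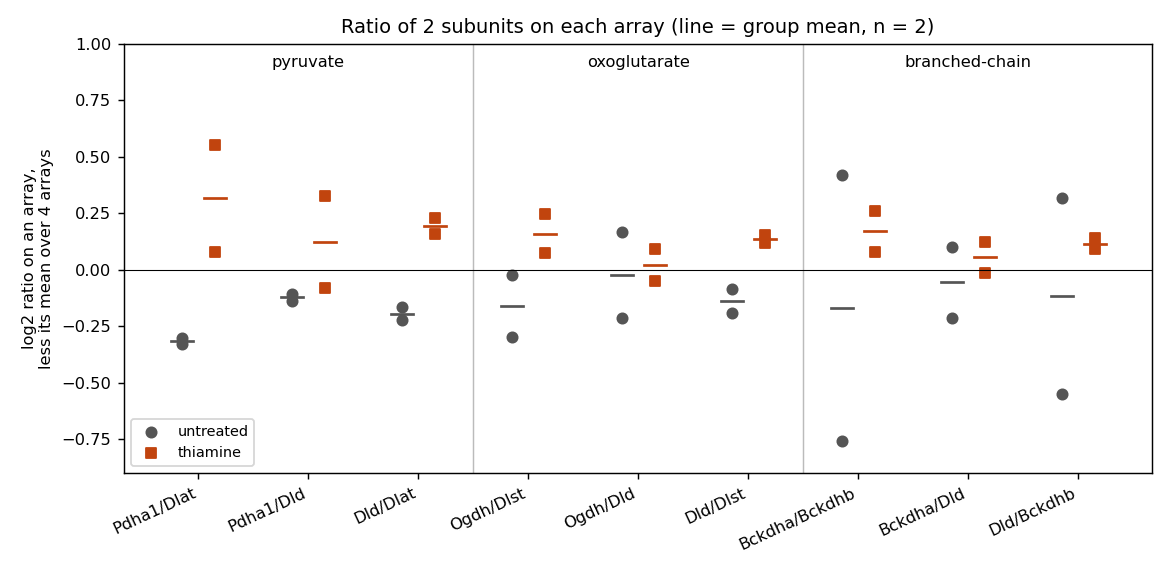
Log2 ratio of 2 subunits of 1 complex on each array, less its mean over the 4 arrays, for the 9 pairs (circles untreated, squares thiamine, lines group means, n = 2). Thiamine and untreated rats are apart in all 3 pairs of pyruvate dehydrogenase and in the 2 pairs with Dlst, and the untreated rats span the widest range in the pairs with Bckdhb.

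Members differed in how far they hung on single rats. The values of Dlat and Dlst kept their sign in each of the 4 fits with 1 array left out, as did Pdha1, whose size ran from 0.072 to 0.38. That sign was fixed in advance, since these fits used the same normalized values and groups without overlap stay apart when an array is dropped. The values of Ogdh, Bckdha, Bckdhb and Dld changed sign in at least 1 of these fits. In such a fit 1 group holds a single rat, whose spread is taken from the other group and from all probes.

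**Figure D4:**
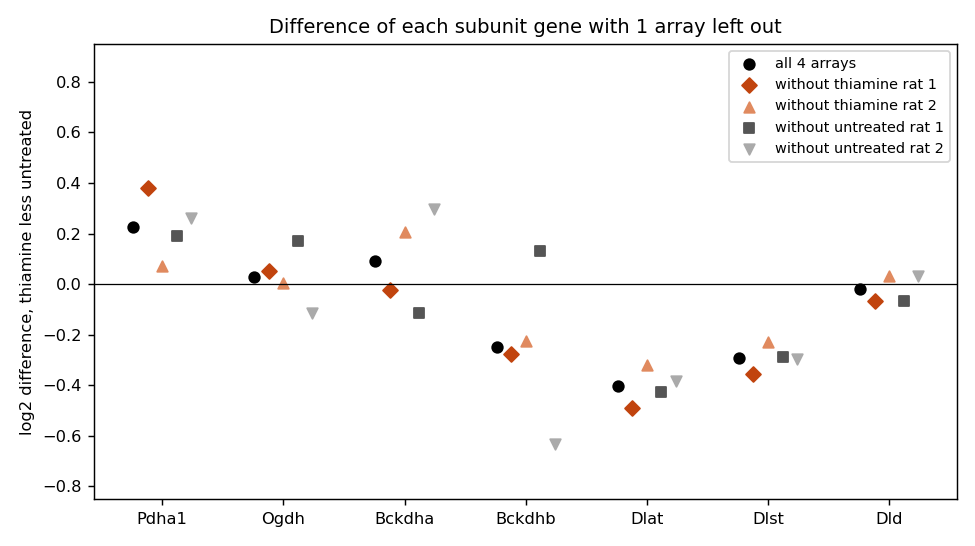
Log2 difference of each subunit gene, thiamine less untreated, with all 4 arrays (black circle) and with each array left out in turn. All points of Dlat and Dlst lie below 0 and all of Pdha1 above it, which their lack of overlap between the groups fixed in advance. Bckdhb runs from -0.63 to 0.13.

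Around the subunits, gene lists of accessory parts and neighbouring steps were described from the same fit, and no gene on them passed the test (limma, adjusted p under 0.05). Of the accessory list, 2 of 4 genes were measured, and the isoforms Pdha2 and Ogdhl had no probe above background. Kgd4, which ties the shared E3 to the oxoglutarate dehydrogenase core, was at 11.58 and 11.63 in thiamine rats 1 and 2 and at 11.06 and 11.49 in untreated rats 1 and 2. The groups did not overlap, and the difference of 0.33 ± 0.20 was 0.11 without untreated rat 1. Dhtkd1, the E1 of the related oxoadipate dehydrogenase, had a difference of -0.10 ± 0.18, or -0.034 as the mean of its probes, and ran from -0.15 to -0.056 with 1 array left out.

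Pyruvate and branched-chain dehydrogenases are switched off by kinases and on by phosphatases that act on their E1 alpha chains. All 9 genes of this list were measured, 5 with higher and 4 with lower values and a median of 0.016 (-0.0055 with 75th percentile scaling, and from -0.045 to 0.063 with 1 array left out); 3 had an unadjusted p under 0.05 upward and 1 downward, where 6.89% of named genes had one in either direction. The kinase Pdk4 was at 9.50 and 9.85 in the thiamine rats and at 8.77 and 8.94 in the untreated rats, Pdk2 at 10.57 and 10.68 against 11.28 and 11.06, and the phosphatase Pdp2 at 9.81 and 10.06 against 9.50 and 9.37. On the brightest probe of each gene, the thiamine livers were thus apart from the untreated ones in opposite directions for the 2 kinases. The adjusted p-values were 0.25 for Pdk4, 0.54 for Pdk2 and 0.60 for Pdp2 (limma). The mean over the kept probes of Pdk2 gave -0.13 in place of -0.54, so not all of its probes were lower in the thiamine livers.

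Lipoic acid has to be made and attached before an E2 can work. Of 14 genes for this, 11 had a kept probe. The values of 5 were higher and those of 6 lower, and the median was -0.0051 (0.021 with median scaling, and from -0.14 to -0.037 with 1 array left out). The iron-sulfur assembly factor Isca2 was at 12.58 and 12.35 in the thiamine rats and at 12.07 and 11.64 in the untreated rats, a difference of 0.61 ± 0.21 (limma, adjusted p = 0.53). Bola3, which also serves iron-sulfur assembly, had a difference of -0.28 ± 0.18, and the glutaredoxin Glrx5 had one of 0.37 ± 0.24. The value of Glrx5 hung on the untreated rats, with 0.038 when rat 2 was left out and 0.71 when rat 1 was, and that of Isca2 was 0.39 when untreated rat 2 was left out.

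The glycine cleavage system uses a lipoic acid carrier and the same E3, Dld. Of its 3 own genes 2 were measured, and both were lower. Gldc, the glycine decarboxylase, was at 10.23 and 10.29 in thiamine rats 1 and 2 and at 11.06 and 10.97 in untreated rats 1 and 2. The groups were well apart, and the difference of -0.75 ± 0.18 had an adjusted p of 0.25 (limma), with values from -0.80 to -0.71 when 1 array was left out. Amt, the aminomethyltransferase, had a difference of -0.076 ± 0.19, which became 0.021 when thiamine rat 2 was left out and 0.061 when untreated rat 2 was.

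Thiamine reaches E1 through membrane carriers and phosphorylation. Of 8 genes for this, 5 had a kept probe, of which 4 had higher and 1 lower values; the median was 0.079, and it ran from 0.045 to 0.21 with 1 array left out. The remaining 3 had no named probe. Thtpa, a thiamine triphosphatase, was at 0.30 ± 0.21 and the carrier Slc19a2 at 0.079 ± 0.19. Thtpa came to 0.030 when untreated rat 1 was left out, to 0.57 when untreated rat 2 was, and to 0.11 as the mean of its probes. The value of Slc19a2 turned to -0.035 when thiamine rat 2 was left out and to -0.031 when untreated rat 2 was.

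Among 12 measured genes of pyruvate import and other pyruvate steps the values of 8 were higher and those of 4 lower (median 0.15). That median was 0.019 when untreated rat 1 was left out, 0.092 with 75th percentile scaling and 0.24 with flagged spots missing. The liver pyruvate kinase Pklr was at -0.43 ± 0.19 and the mitochondrial alanine aminotransferase Gpt2 at 0.39 ± 0.18, and Pklr came to -0.27 when thiamine rat 2 was left out and to -0.25 with flagged spots missing. The mitochondrial phosphoenolpyruvate carboxykinase Pck2 had no untreated array with a signal well above background. Its thiamine level was at least 1.20-fold higher. This bound is the mean of the brighter group over the lowest signal above background or the probe's own. Pck2 is among the 8 higher genes but was kept through the thiamine group alone, so the filter favoured its direction. Where a near-background spot on any array removed a probe, Pck2 dropped out and the median of this list was 0.11. In the citric acid cycle beside oxoglutarate dehydrogenase 12 of 15 genes had a kept probe, 5 with higher and 7 with lower values (median -0.18). That median was -0.064 when thiamine rat 1 was left out and -0.088 when untreated rat 2 was. Suclg1, a subunit of the succinyl-CoA ligase that takes up the product of oxoglutarate dehydrogenase, was at 15.02 and 14.39 in thiamine rats 1 and 2 and at 13.91 and 14.18 in untreated rats 1 and 2, a difference of 0.66 ± 0.23, or 0.30 as the mean of its probes and 0.34 when thiamine rat 1 was left out. The fumarase Fh was at 0.37 ± 0.18 and the succinate dehydrogenase subunit Sdhc at -0.33 ± 0.18; Fh came to 0.24 when untreated rat 1 was left out and Sdhc to -0.21 when thiamine rat 2 was.

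Downstream of the branched-chain complex, 17 of 25 genes of branched-chain amino acid breakdown had a kept probe, 8 with higher and 9 with lower values (median -0.039) and 0 at an unadjusted p under 0.05. The sign of that median was not settled: it was 0.0050, 0.037 and 0.028 when thiamine rat 1, thiamine rat 2 or untreated rat 2 was left out, and 0.12 with flagged spots missing. The amino acid transporter chain Slc3a2 was at 0.42 ± 0.21 and the aminotransferase Bcat1 at -0.36 ± 0.21. Mmaa, which serves the cobalamin enzyme of propionate use, was at 0.41 ± 0.25 and at -0.0085 without untreated rat 1. The Mmaa spot of untreated rat 1 was near background, so the probe was kept through the thiamine group alone. The difference of Mmaa is thus not exact. Bcat1 came to -0.14 when thiamine rat 2 was left out, to -0.57 when thiamine rat 1 was and to -0.20 when untreated rat 1 was, and Slc3a2 came to 0.26 when thiamine rat 1 was left out, to 0.24 when untreated rat 2 was and to 0.28 with flagged spots missing. As the mean of its probes Slc3a2 was larger, at 0.57, with an unadjusted p of 0.0057 and an adjusted p of 0.40 (limma). The count of 0 above thus holds for the brightest probe of each gene.

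**Figure D5:**
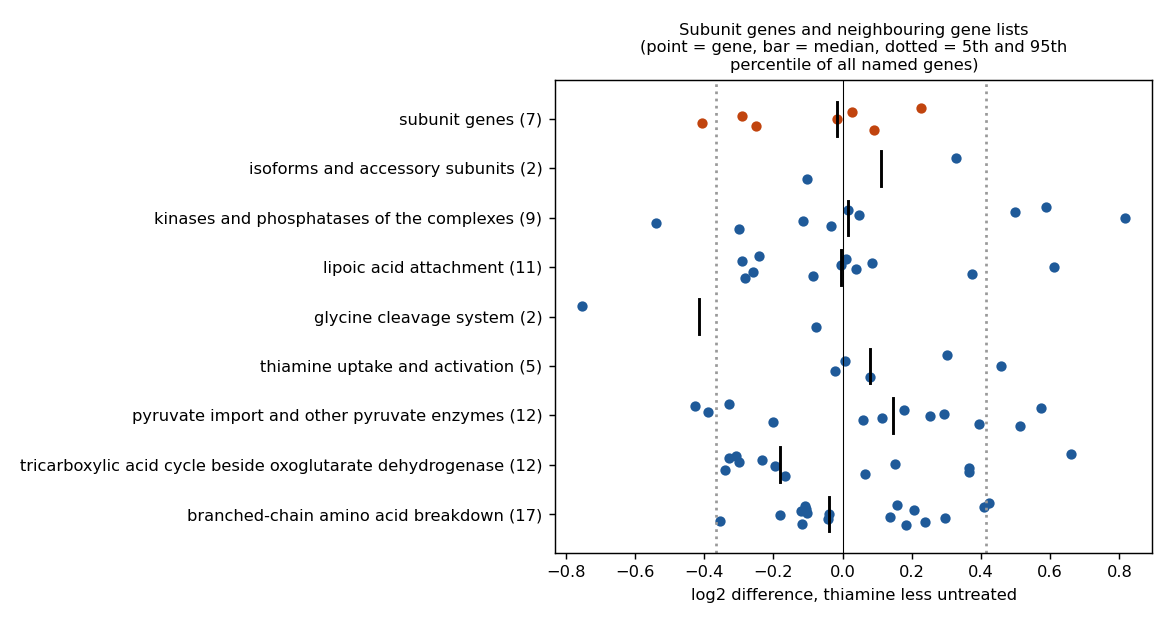
Log2 difference of every measured gene of the subunit list (top row) and of 8 neighbouring lists, thiamine less untreated, 1 point per gene with a bar at the median; dotted lines mark the 5th and 95th percentile over all named genes. Dlat is the 1 subunit gene beyond these lines, and the lists beside it hold points on both sides of 0, except the 2 genes of glycine cleavage.

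The 4 samples carried the transcripts of liver: albumin (Alb) lay between 15.15 and 15.36 and transthyretin (Ttr) between 15.04 and 15.19 in all rats. Of 11 measured hepatocyte markers 5 had higher and 6 lower values, from -0.18 for Ahsg to 0.53 for Cps1 (median -0.011), and their summed normalized intensity was 265068 and 281370 in the thiamine livers and 266186 and 269188 in the untreated livers. The brightest markers weigh most in these sums, and 31 to 40 gene spots per array were flagged as saturated. Similar sums therefore need not mean a similar share of hepatocytes. No gene of any marker list passed the test (limma; the lowest adjusted p of the hepatocyte, Kupffer and endothelial lists was 0.31, for Lyve1). Of 13 listed markers of Kupffer cells 9 were measured, all 9 with higher values in the thiamine livers, from 0.31 for Csf1r to 0.92 for Ctss (0.57 when thiamine rat 1 was left out), with a summed intensity of 29062 and 20203 against 19734 and 12801; Marco, Vsig4, Timd4 and Lyz2 had no kept probe. Of 11 listed endothelial markers 8 were measured, all 8 with higher values, from 0.018 for Stab1 to 0.77 for Lyve1, with sums of 8116 and 7661 against 6144 and 6011. Csf1r came to -0.0065 when thiamine rat 1 was left out and to -0.021 when untreated rat 2 was, and Stab1 to -0.041 and -0.22. The other marker lists had 1 to 5 measured genes each. All 4 lymphocyte, 2 erythroid, 2 fat cell genes and 1 pancreas gene had higher values, 2 skeletal muscle genes and 1 neutrophil gene had lower values, and the lists were mixed for stellate cells (2 higher, 3 lower) and bile duct cells (1 higher, 1 lower). The part of this in the values of the subunits was not tested. In such bulk samples fewer cells of a type and less RNA per cell cannot be told apart. The number of arrays, 2 per group, limits the precision. A 95% interval of a subunit spanned 0.79 to 1.06 on the log2 scale.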

How the data were processed

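The data are 4 scanner reports of 1-colour CodeLink arrays, 1 per rat, and the value table of the series. Per the file headers, CodeLink Expression Analysis 5.0.0.31312 wrote the reports; the deposited columns are intensity values per spot (spot mean, local background and their difference), not normalized. The deposited value table also holds intensity values, with equal quartiles in its columns and a floor of 0.001; the steps behind it are not given here by any label or header.

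The background was corrected with normexp (offset 50, over 35129 features), log2 values of 33849 gene probes were quantile normalized, and a probe was kept where, in at least 1 group, neither array flagged it as near background. Masked spots were missing. Probes were named by the platform annotation, with symbols brought to RefSeq GRCr8 by gene ID, or by RefSeq accessions in the reports. The brightest kept probe stands for a gene. Groups and replicate numbers came from the labels. limma 3.58.1 (R 4.3.3; lmFit, eBayes, two-sided) was adjusted over all kept probes by Benjamini-Hochberg, with 10.83 total degrees of freedom; SEs are moderated towards the spread over all probes. Ratios used exact permutation tests.

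The members and lists were chosen with earlier results of these data known. Named were all subunit genes, of each neighbouring list the 3 genes with the smallest unadjusted p, and of the hepatocyte, Kupffer and endothelial markers the highest and lowest (other marker lists by counts; some genes that the rule names are not reported here), with Alb and Ttr added as a check of the tissue. On simulated data (18650 probes, 200 changed, 5 runs, thiamine less untreated) limma recovered 56.2% of changes of 2-fold and 99% of those of 4-fold and made 11.4 false calls on average. The simulated noise was normal and independent, with variances drawn from the spread that limma fitted to these arrays. It thus met the assumptions of limma by construction, and these shares need not hold for the real arrays. Alternatives changed the background correction, its offset, the scaling, the filter, the handling of flagged spots, the source (the deposited table), the probe per gene and the design (a replicate block, each array left out).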

Additional observations from a re-analysis of the deposited data

How the results depend on the processing

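No subunit probe was called by limma under any of the 13 alternatives that refit all probes. Over all probes the count of calls, 0 in the fit as reported, stayed 0 under 8 of them, was 126 with the replicate number as a block (1 residual degree of freedom) and ran from 2 to 89 with 1 array left out. The replicate numbers pair nothing by the labels, and same-numbered rats did not deviate together (correlation -0.074). Dlat, Dlst and Pdha1 kept their sign in all 15 alternatives, not all of which could turn it. With 1 array left out the sign was fixed by the lack of overlap between the groups. A changed filter or a replicate block left these differences as they were, and a changed probe altered only that of Pdha1. Dld was at 0.020 with median scaling and from -0.068 to 0.032 with 1 array left out; that range was -0.11 to 0.17 for Ogdh, -0.12 to 0.30 for Bckdha and -0.63 to 0.13 for Bckdhb. The median of the subunit genes was 0.020 with median scaling. With 1 array left out it ran from -0.11 to 0.0052, as did that of oxoglutarate dehydrogenase. Changes of ratios ran from -0.15 to 0.24 for Ogdh to Dld, -0.25 to 0.93 for Bckdha to Bckdhb, -0.049 to 0.27 for Bckdha to Dld and -0.20 to 0.66 for Dld to Bckdhb. Of the 9 pairs, 5 did not overlap in 9 of 11 alternatives with all arrays and 4 in the others, both of which changed the probe of Pdha1; the use of its dimmer probe alone was chosen after seeing the data. Among neighbouring genes, whose alternatives were also added after seeing the data, the ranges with 1 array left out were -0.21 to 0.061 for Amt, -0.035 to 0.19 for Slc19a2, -0.0085 to 0.83 for Mmaa, -0.021 to 0.65 for Csf1r and -0.22 to 0.25 for Stab1. The cause of these shifts was not tested. Each array was a slide of its own, so a slide block could not be fitted, and scan batches are not given in the sources used here. A group of 2 rats limits every value here, and a gene near background on both arrays of a group is read as a bound.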
